A study of Mus musculus with 13 samples.

Results

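The genes described here are the nuclear effectors of the Hippo pathway with their kinases and a pair of feedback or target genes, in mouse lung 21 days after bleomycin. They are the coactivators Yap1 and Wwtr1 (which encodes TAZ), the DNA-binding partners Tead1, Tead2, Tead3 and Tead4, the kinases Lats1 and Lats2, the angiomotin relative Amotl2 and the stretch-responsive gene Ankrd1. All 10 symbols were found among the 54513 symbols of the deposited count table, and all 10 passed the filter on low counts, as 20468 genes did.

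In the Hippo pathway, the kinases encoded by Stk3 and Stk4 activate LATS1 and LATS2, which phosphorylate YAP and TAZ and hold them in the cytoplasm. Unphosphorylated YAP and TAZ enter the nucleus and bind TEAD proteins, and the pathway is known for linking cell contacts and matrix stiffness to growth, repair and fibroblast activation in the lung. Much of this control acts on protein phosphorylation and location, which RNA counts do not measure.

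Each library was made from 8 ng of total RNA of a 10 µm coronal slice of archived (FFPE, fixed in formalin and kept in paraffin) lung. The mice were C57Bl/6 males aged 7 to 8 weeks. Bleomycin is a DNA-damaging drug used to produce lung fibrosis in mice. The 3 groups were 5 saline libraries of batch 1 (replicates 1 to 5), 4 bleomycin libraries of batch 1 (replicates 5 to 8) and 4 bleomycin libraries of batch 2 (replicates 1 to 4). All were collected at day 21, no genetic change is named for any of them, and batch 2 held no saline library. What the batches are is not in the labels. Neither is it stated that every library comes from its own mouse, so the p-values reflect the spread among these libraries alone, which may be technical.

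Total counts were 9527580 to 26043735 in saline, 21727502 to 28885129 in batch 1 bleomycin and 6337147 to 12982422 in batch 2 bleomycin. The 10 genes held 65 to 9114 reads per library, the lowest being Tead2 in the batch 2 library of replicate 4. The labels of batch 1 bleomycin replicate 8 conflict: control in its title, bleomycin in its treatment field and library name. Its summed level of 8 activated fibroblast genes was 16445 CPM (read counts scaled to library size by TMM), where the saline libraries had 1126 to 1434 and the other bleomycin libraries 4288 to 16613, and it was kept as bleomycin. Without it 5 of the 10 genes passed the test described below (Tead1, Tead4, Lats2, Amotl2 and Ankrd1), and with it counted as saline only Amotl2 did. Lung identity was plain in every group: 8 alveolar type 2 genes summed to 2789 CPM or more in each library.

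TEAD proteins bind the sequence CATTCC, and the 250 bases before the annotated start were searched for it on both strands (as CATTCC or GGAATG). RefSeq starts on GRCm38.p6 were given for 8 of the 10 genes, all but Tead1 and Tead4. At least 1 of these windows held the motif for 5 of the 8 genes (62.5%), against 14.4% of 27025 genes in the same table. The 5 were Amotl2, Ankrd1, Tead3, Wwtr1 and Yap1, and no window of Lats1, Lats2 or Tead2 held these letters. The windows of the coactivators are shown with those of Ankrd1, Amotl2 and Ccn1, which are widely used as YAP and TAZ target genes and did not all move the same way. Each sequence runs 5′ to 3′ along the gene's own strand and ends just before the start, and capitals mark the motif.
Ankrd1 (chr19:36119845-36120094, minus strand): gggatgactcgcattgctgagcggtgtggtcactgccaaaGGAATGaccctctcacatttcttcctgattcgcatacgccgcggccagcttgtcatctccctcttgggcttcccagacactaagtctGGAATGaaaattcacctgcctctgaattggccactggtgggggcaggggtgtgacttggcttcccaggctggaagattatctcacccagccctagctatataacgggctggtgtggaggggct
Amotl2 (chr9:102717554-102717803, plus strand): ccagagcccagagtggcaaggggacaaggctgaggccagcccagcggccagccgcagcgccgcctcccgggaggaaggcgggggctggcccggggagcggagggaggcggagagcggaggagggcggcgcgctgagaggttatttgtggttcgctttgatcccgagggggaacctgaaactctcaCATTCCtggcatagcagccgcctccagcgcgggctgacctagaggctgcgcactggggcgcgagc
Ccn1 (chr3:145649986-145650235, minus strand): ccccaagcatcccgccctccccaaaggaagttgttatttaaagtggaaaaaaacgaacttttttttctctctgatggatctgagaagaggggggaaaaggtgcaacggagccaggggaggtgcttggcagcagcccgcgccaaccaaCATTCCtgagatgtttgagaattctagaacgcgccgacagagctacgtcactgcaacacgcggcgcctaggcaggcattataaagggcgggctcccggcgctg
Yap1 (chr9:8004597-8004846, minus strand): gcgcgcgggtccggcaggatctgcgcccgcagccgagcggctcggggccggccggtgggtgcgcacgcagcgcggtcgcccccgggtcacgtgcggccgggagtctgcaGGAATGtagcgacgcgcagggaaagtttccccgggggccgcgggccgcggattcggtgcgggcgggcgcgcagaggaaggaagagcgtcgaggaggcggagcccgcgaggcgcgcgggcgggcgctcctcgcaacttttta
Wwtr1 (chr3:57575911-57576160, minus strand): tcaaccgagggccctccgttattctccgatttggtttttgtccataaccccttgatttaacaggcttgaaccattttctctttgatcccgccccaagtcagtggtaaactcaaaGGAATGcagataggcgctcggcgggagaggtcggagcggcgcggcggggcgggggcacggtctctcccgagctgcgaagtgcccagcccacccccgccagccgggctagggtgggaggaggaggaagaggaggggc
In Ankrd1 the motif began 210 and 123 bases before the start, in Amotl2 65 bases, in Ccn1 103 bases, in Yap1 141 bases and in this window of Wwtr1 136 bases. A match is a run of letters and does not show that a TEAD protein binds there.

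Bleomycin was set against saline to see which of these genes had changed in RNA level by day 21. The coactivators and Lats1 did not pass the test. Tead1, Tead4, Lats2 and Amotl2 fell in batch 1 bleomycin, and Tead2, Tead3 and Ankrd1 rose. Thus 3 of the 10 were higher and 4 lower at an adjusted p under 0.05, where 30.9% of all 20468 tested genes were called, 17.5% higher and 13.4% lower. The median log2 change was -0.02 over the 10 genes and 0.03 over all genes. Changes are log2 fold changes with their standard errors (SE) from edgeR's quasi-likelihood test, with Benjamini-Hochberg adjustment over all genes tested. Levels are CPM, given as mean ± SD over 5 saline, 4 batch 1 bleomycin and 4 batch 2 bleomycin libraries. The treatment term compares batch 1 bleomycin with saline, and the batch 2 libraries enter it only through the shared spread, the library scaling and the low-count filter. In the library names the bleomycin and saline libraries of batch 1 form separate number runs, so a set difference between them cannot be told apart from treatment.

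**Figure D1:**
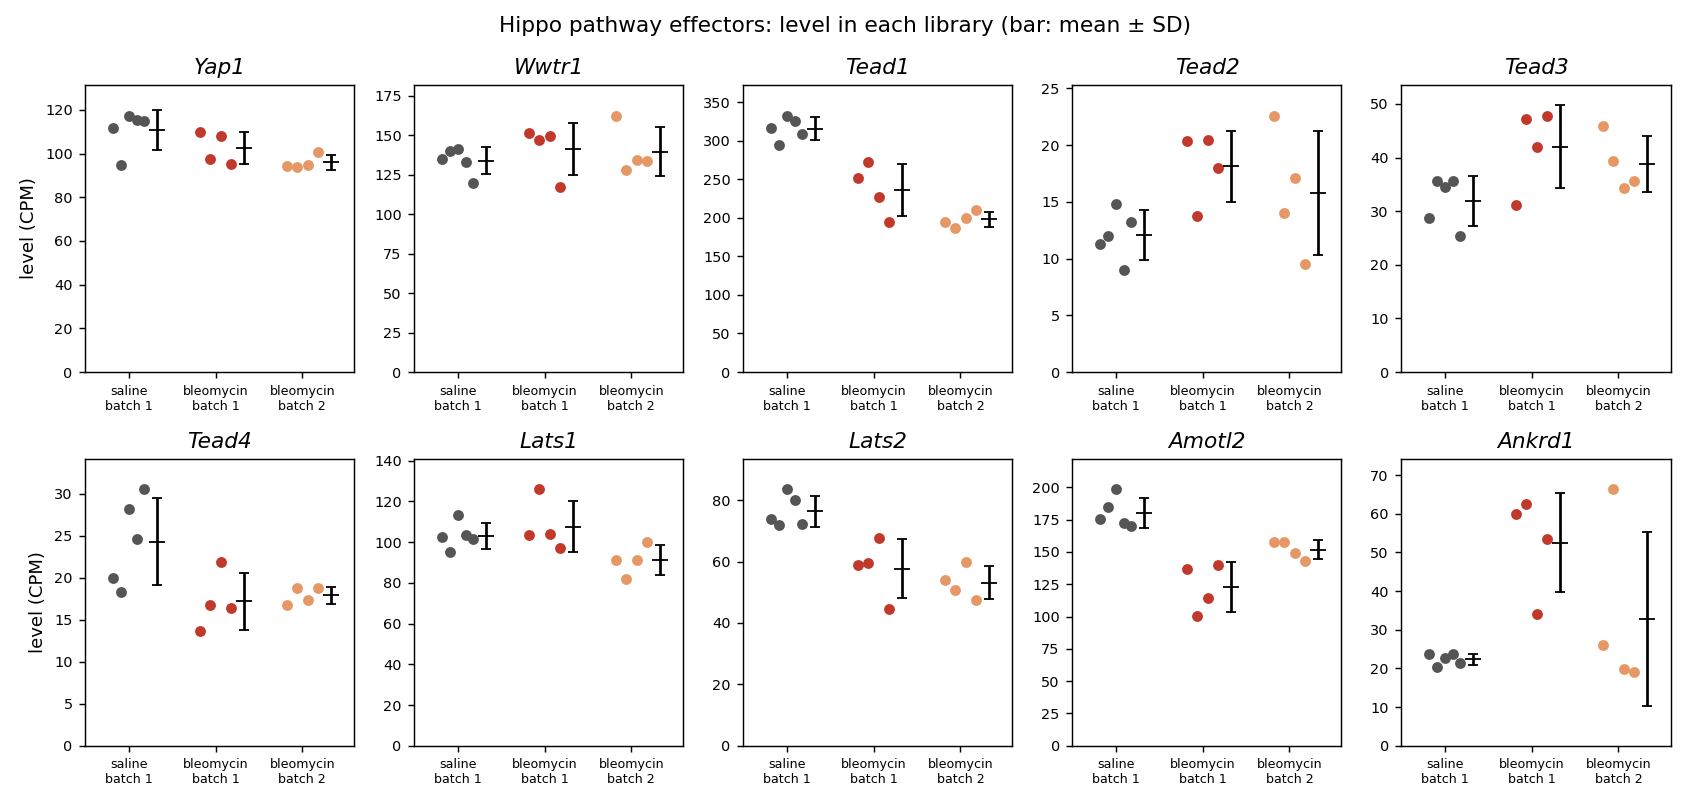
Level in CPM (vertical axis, from 0) of each of the 10 genes in each library, with saline in grey, batch 1 bleomycin in red and batch 2 bleomycin in orange; black bars give mean ± SD. Tead1, Lats2 and Amotl2 lie below every saline library in both bleomycin batches, and Ankrd1 is at 34.2 to 62.6 CPM in batch 1 bleomycin but near saline in 3 of 4 batch 2 libraries.

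Neither coactivator passed the test, in the fit reported or with any 1 library left out. Yap1 stood at 112, 94.98, 117, 115 and 115 CPM in saline replicates 1 to 5 and at 109.8, 97.5, 108 and 95.4 CPM in batch 1 bleomycin replicates 5 to 8. The groups overlapped. With all libraries its log2 change was -0.11 (SE 0.08, 95% interval -0.28 to 0.06, adjusted p = 0.334 by edgeR), and batch 2 bleomycin held 93.6 to 101 CPM. Wwtr1 stood at 135, 140.0, 141, 133 and 119.8 CPM in saline and at 152, 147, 149.8 and 117 CPM in batch 1 bleomycin. Of the bleomycin libraries only replicate 8 was below all of saline, and the rest of batch 1 bleomycin was above all of it. The log2 change of Wwtr1 was 0.08 (SE 0.10, 95% interval -0.13 to 0.28, adjusted p = 0.583), and batch 2 bleomycin held 128 to 162 CPM. Changes within these intervals could not be told apart from none at this number of libraries.

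To set levels of different genes side by side, CPM were divided by exon length. Per kilobase of exon (lengths of the GENCODE M21 annotation, matched by symbol), Amotl2 led in saline with 28.6 ± 1.84 CPM per kilobase, followed by Wwtr1 with 28.01 ± 1.79, Tead1 with 23.3 ± 1.10, Lats1 with 14.1 ± 0.882 and Yap1 with 11.97 ± 0.98. Lats2 (10.9 ± 0.731), Ankrd1 (7.76 ± 0.505), Tead4 (6.76 ± 1.45), Tead3 (4.76 ± 0.69) and Tead2 (2.52 ± 0.455) came after them on the same scale. Neighbours in this order whose saline ranges overlapped were Amotl2 with Wwtr1, Yap1 with Lats2, Ankrd1 with Tead4, and Tead4 with Tead3. In batch 1 bleomycin Wwtr1 stood alone at the top with 29.6 ± 3.43 CPM per kilobase. Ankrd1 came among Amotl2 and Tead1 there, at 18.2 ± 4.45 against 19.5 ± 3.03 and 17.4 ± 2.48, with overlapping ranges. These levels depend on the annotated exon length, which may differ in the annotation the authors counted on. They and the TEAD shares below also presume reads spread along the whole transcript, which was not checked.

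Among the TEAD genes, the most abundant member Tead1 fell, as did Tead4, while Tead2 and Tead3 were higher with calls close to the threshold. Tead1 stood at 317, 294, 333, 326 and 309 CPM in saline and at 252, 272, 227 and 194 CPM in batch 1 bleomycin. All bleomycin libraries were below all saline libraries, in batch 2 as well (195, 187, 199 and 211 CPM). The log2 change of Tead1 was -0.42 (SE 0.09, adjusted p = 0.00337 by edgeR), which is 0.748 of the saline mean, and the batch 2 mean was 0.627 of it. Tead1 passed with any 1 of the 13 libraries left out (adjusted p at most 0.0134), with -0.37 (adjusted p = 0.00433) without batch 1 bleomycin replicate 8. RNA here comes from whole slices, so fewer cells of a type and less RNA per cell cannot be told apart, for this gene and for those below.

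Tead4 stood at 19.9, 18.3, 28.2, 24.6 and 30.5 CPM in saline and at 13.7, 16.8, 21.8 and 16.4 CPM in batch 1 bleomycin, where only replicate 7 reached the saline range. Its log2 change was -0.50 (SE 0.16, adjusted p = 0.0293 by edgeR), and batch 2 held 16.8 to 18.8 CPM. The call ended without batch 1 bleomycin replicate 5 or 6 or without saline replicate 3 or 5, at adjusted p up to 0.0795.

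Tead2, whose product acts mainly in embryonic tissues, stood at 11.3, 11.9, 14.8, 8.99 and 13.2 CPM in saline and at 20.4, 13.7, 20.4 and 17.998 CPM in batch 1 bleomycin. In batch 2 it spread from 9.52 to 22.6 CPM. Its log2 change was 0.59 (SE 0.21, adjusted p = 0.045). Tead3 stood at 28.6, 35.6, 34.4, 35.6 and 25.4 CPM in saline and at 31.1, 47.1, 42.0 and 47.8 CPM in batch 1 bleomycin, a log2 change of 0.40 (SE 0.14, adjusted p = 0.0453), with 34.4 to 45.8 CPM in batch 2. Neither separated the groups, and both calls were close to the threshold. With 1 library left out, Tead2 passed in 4 of 13 fits (adjusted p up to 0.14 in the others), those without batch 1 bleomycin replicate 6, batch 2 bleomycin replicate 1 or 4, or saline replicate 3. Tead3 passed in 2 of 13 (adjusted p up to 0.17 in the others), those without batch 1 bleomycin replicate 5 or batch 2 bleomycin replicate 1. Neither passed by DESeq2, with its size factors in edgeR or over protein-coding genes alone.

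The balance within the family was read from ratios of counts, in which the scaling of a library cancels. Such a ratio adds up changes that go in opposite directions. Tead2 reads were 0.0276 to 0.0445 of Tead1 reads in saline, 0.0504 to 0.0927 in batch 1 bleomycin and 0.0452 to 0.116 in batch 2 bleomycin. No bleomycin library was within the saline range. The mean log2 ratio was 1.02 higher in batch 1 bleomycin (exact two-sided permutation test, p = 0.00794, the smallest that 5 against 4 libraries can give, adjusted p = 0.0132 over 5 ratios, n = 5 and 4). For Tead3 the ratio was 0.0824 to 0.121 in saline, 0.123 to 0.246 in batch 1 bleomycin and 0.169 to 0.235 in batch 2 bleomycin, and the log2 ratio was higher by 0.82 (exact permutation p = 0.00794, adjusted p = 0.0132). The Tead4 to Tead1 ratio did not differ beyond its spread (log2 difference -0.06, exact permutation p = 0.698).

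Per kilobase of exon, Tead1 made up 62.5% ± 2.27 of the 4 TEAD genes in saline, 53.9% ± 5.61 in batch 1 bleomycin and 51.0% ± 3.58 in batch 2 bleomycin. Its share was 60.2% to 65.7% in saline and 47.0% to 59.4% over all 8 bleomycin libraries. Tead3 went from 12.8% ± 2.00 to 19.5% ± 3.78 and 20.1% ± 1.93, and Tead2 from 6.75% ± 1.07 to 11.8% ± 2.40 and 11.4% ± 3.52. Tead4 held 18.01% ± 3.08, 14.8% ± 2.62 and 17.4% ± 1.63 in the same order of groups. Shares of 1 total depend on each other, so a fall of Tead1 alone would raise the shares of the other TEAD genes.

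**Figure D2:**
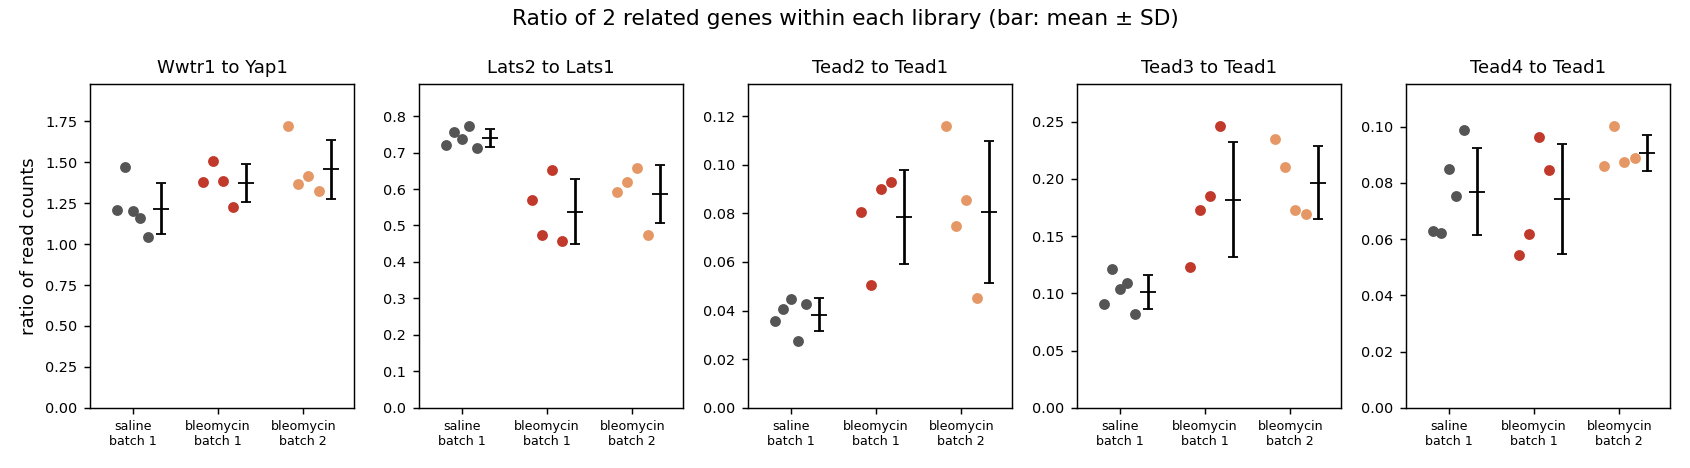
Ratio of read counts of 2 related genes (vertical axis, linear, from 0) in each library, by group, with mean ± SD as black bars. Lats2 to Lats1 is lower and Tead2 to Tead1 and Tead3 to Tead1 are higher than in saline in all 8 bleomycin libraries, while Wwtr1 to Yap1 and Tead4 to Tead1 overlap.

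The LATS kinases, which phosphorylate YAP and TAZ, also diverged. Lats1 stood at 102, 95.2, 113, 103 and 101 CPM in saline and at 104, 125.9, 104 and 97.1 CPM in batch 1 bleomycin (log2 change 0.06, SE 0.09, 95% interval -0.13 to 0.25, adjusted p = 0.647 by edgeR). Lats2, itself a YAP and TAZ target as well as a kinase, stood at 73.9, 72.0, 83.5, 79.9 and 72.4 CPM in saline and at 58.9, 59.6, 67.7 and 44.6 CPM in batch 1 bleomycin. Every bleomycin library was below every saline library, and batch 2 held 54.1, 50.7, 59.9 and 47.4 CPM. The log2 change of Lats2 was -0.40 (SE 0.11, adjusted p = 0.0118), and it passed with any 1 library left out (adjusted p at most 0.0291), with -0.33 (adjusted p = 0.0207) without batch 1 bleomycin replicate 8.

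Lats2 reads were 0.714 to 0.773 of Lats1 reads in saline, a narrow range. In batch 1 bleomycin the ratio was 0.459 to 0.652 and in batch 2 bleomycin 0.474 to 0.658. The mean log2 ratio differed by -0.47 within batch 1 (exact two-sided permutation p = 0.00794, adjusted p = 0.0132). In the M21 annotation 42.4% of the exon bases of Lats2 are shared with the readthrough gene Gm49361 on the same strand, which had 0 counts in every library, so how reads of the shared part were assigned is not known. By contrast, the Wwtr1 to Yap1 ratio was 1.04 to 1.47 in saline and 1.23 to 1.51 in batch 1 bleomycin (log2 difference 0.18, exact permutation p = 0.143, adjusted p = 0.179). Saline replicate 2 was the highest of saline, and without it the adjusted p was 0.0357.

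Amotl2 and Ankrd1, which are both transcribed in response to YAP and TAZ in many cells, went in opposite directions. Amotl2, an adaptor that also holds YAP and TAZ at cell junctions, stood at 175, 185, 198, 173 and 170.0 CPM in saline and at 137, 100.1, 114 and 140.1 CPM in batch 1 bleomycin. The groups did not overlap, and batch 2 bleomycin lay between them at 158, 157, 149 and 143 CPM, below all of saline and above all of batch 1 bleomycin. The log2 change was -0.55 (SE 0.10, adjusted p = 0.000636 by edgeR). Among these 10 genes Amotl2 alone passed in all 13 fits with 1 library left out and in all 9 other alternatives (log2 change -0.65 to -0.28).

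Ankrd1, an ankyrin repeat protein of stretched muscle and activated cells, stood at 23.7, 20.4, 22.6, 23.8 and 21.5 CPM in saline. In batch 1 bleomycin it stood at 59.9, 62.6, 34.2 and 53.5 CPM, all above saline. The log2 change was 1.23 (SE 0.33, adjusted p = 0.0136 by edgeR), or 2.35-fold between the means, and it passed with any 1 library left out (adjusted p at most 0.0398). Batch 2 bleomycin replicate 2 held 66.3 CPM, whereas the others of that batch held 26.1, 19.9 and 19.2 CPM. These lay on both sides of saline, the first above all of it and the others below all of it.

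Of the 10 genes, 4 separated batch 1 bleomycin from saline with no overlap, where 25.3% of all tested genes did (14% higher, 11.3% lower). They were Tead1, Lats2, Amotl2 and Ankrd1. In batch 2, 3 of 10 did so, Tead1, Lats2 and Amotl2, all lower, where 28.1% of all genes did (15.3% higher, 12.9% lower). Both shares are near the background or somewhat above it, and nothing particular to these genes follows from the counts.

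**Figure D3:**
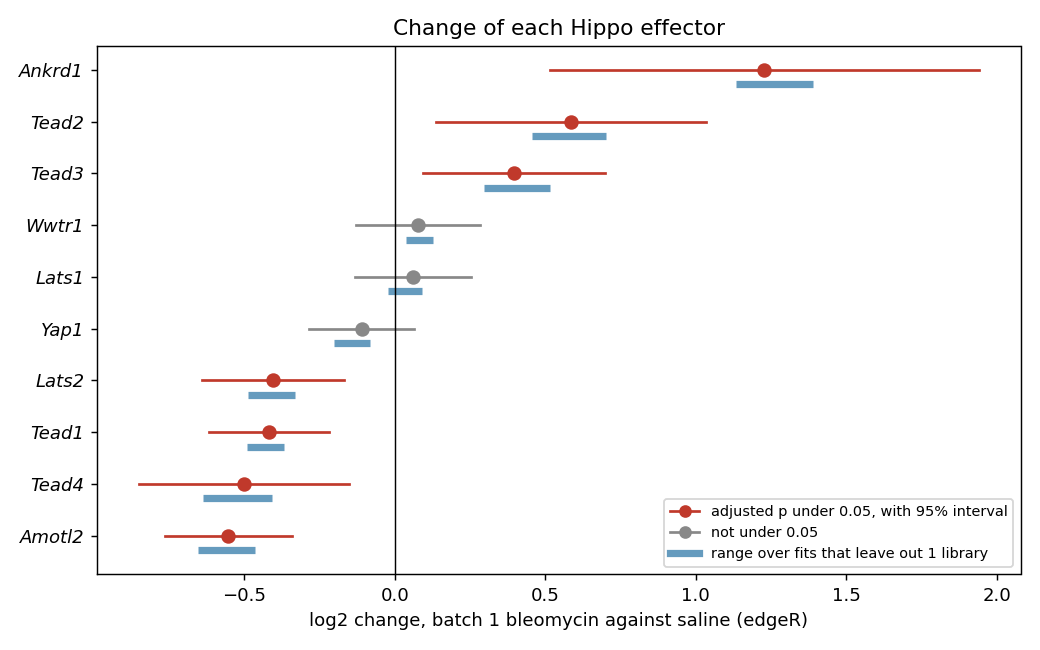
Log2 change of each gene in batch 1 bleomycin against saline (horizontal axis, points) with its 95% interval (thin lines), in red where the adjusted p was under 0.05 and in grey otherwise; thick blue lines give the range over 13 fits that leave out 1 library. Amotl2, Tead1 and Lats2 sit below 0 with intervals that exclude it, Ankrd1 is highest at 1.23, and Yap1, Lats1 and Wwtr1 lie around 0.

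Ankrd1 is also abundant in heart muscle, and heart muscle genes were present in these lung slices and varied between libraries. All 12 genes of a cardiac muscle list had counts, though Myl2 was at 0 in at least 1 library of saline and of batch 2 bleomycin. Their means were higher in batch 1 bleomycin than in saline for 9 of the 12 and lower for 3. The median log2 change was 0.79, against 0.03 over all genes. edgeR called 0 of the 12, where 30.9% of all tested genes were called. At an unadjusted p under 0.05 there was 1 of the 12, and 8490 of all 20468 tested genes. Their summed level was 1732 to 9510.1 CPM in saline, 1753 to 11855 in batch 1 bleomycin and 242 to 7861 in batch 2 bleomycin, a sum led by Ttn, which skeletal muscle also expresses.

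Ttn stood at 773 to 8120 CPM in saline and 954 to 6311 CPM in batch 1 bleomycin. Myh6, a myosin heavy chain of heart muscle, stood at 254 to 481 CPM in saline, at 2520, 363, 347 and 1114 CPM in batch 1 bleomycin replicates 5 to 8 and at 56.6, 1834, 605 and 1014 CPM in batch 2 bleomycin replicates 1 to 4. The Myh6 mean was 2.85-fold that of saline in batch 1 bleomycin (adjusted p = 0.196 by edgeR). Batch 1 bleomycin replicates 5 and 8 and batch 2 bleomycin replicate 2 were high in both Myh6 and Ankrd1. Batch 1 bleomycin replicates 6 and 7 lay within the saline range of Myh6, with 62.6 and 34.2 CPM of Ankrd1. Batch 2 bleomycin replicates 3 and 4 were above that range, with 19.9 and 19.2 CPM of Ankrd1. The part of heart muscle in the rise of Ankrd1 was not tested.

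**Figure D4:**
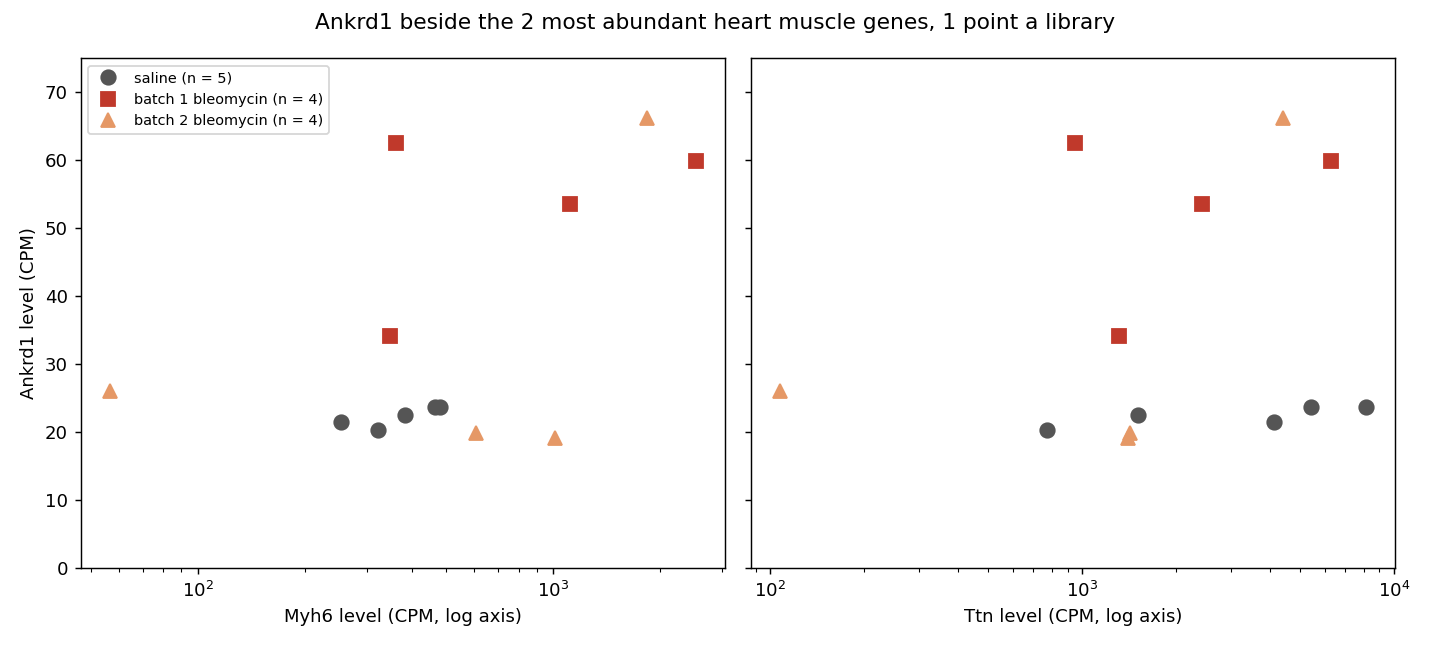
Ankrd1 level in CPM (vertical axis) against the level of Myh6 (left) and Ttn (right) in CPM (horizontal axes, log scale), 1 point a library, by group. Saline spans only 254 to 481 CPM of Myh6, while 3 of the 4 libraries with Ankrd1 above 50 CPM have 1114 CPM of Myh6 or more and batch 1 bleomycin replicate 6 has 363.

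Other cell type markers moved with bleomycin beside these genes, and their part in the changes was not tested. In batch 1 bleomycin the alveolar type 2 and ciliated airway sums lay below all of saline and the lymphocyte sum above it. In batch 2 the alveolar type 2 and ciliated airway sums overlapped saline. Mesothelium, skeletal muscle and lymphatic endothelial sums of batch 1 bleomycin overlapped saline, as did the smooth muscle sum given below. The summed level of 8 alveolar type 1 genes was 2863 to 3598 CPM in saline, 1252 to 2189.7 in batch 1 bleomycin and 1822 to 2458 in batch 2 bleomycin. For 8 capillary endothelial genes the sums were 4366 to 5557, 2710.2 to 3344 and 2907 to 3372 CPM, and for 8 smooth muscle genes 1525 to 1931, 882 to 1645 and 796 to 1264 CPM. Sums of 8 activated fibroblast genes (1126 to 1434, 4288 to 16445 and 6219 to 16613 CPM) and 8 macrophage genes (229 to 237, 452 to 902 and 557 to 871 CPM) went the other way. All genes of these lists had counts. The capillary sum was led by Epas1, at 3514 ± 360 CPM in saline and 1866 ± 178 CPM in batch 1 bleomycin. Cdh5, next in level, was at 456 ± 50.5 and 408 ± 49.9 CPM and did not pass (adjusted p = 0.255 by edgeR). Of the 8 capillary genes 6 were called lower and 2 were not called, where 13.4% of all tested genes were called lower.

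The rest of the pathway was read from lists of its other genes. In the kinase core and its scaffolds, 1 of 11 genes was higher, 1 lower and 9 not called (median log2 change -0.04), where 30.9% of all genes were called, 17.5% higher and 13.4% lower. Map4k4, a kinase that can activate LATS beside the core kinases, rose from 214 ± 21.1 to 349 ± 102 CPM, a log2 change of 0.71 (SE 0.17, adjusted p = 0.00544 by edgeR) that was 0.45 (adjusted p = 0.0197) without batch 1 bleomycin replicate 8. Stk4, a core kinase, fell from 116 ± 14.4 to 96.9 ± 4.91 CPM (-0.26, adjusted p = 0.0437), but it passed in only 4 of 13 fits with 1 library left out. Those were the fits without batch 1 bleomycin replicate 8, batch 2 bleomycin replicate 3, saline replicate 2 or saline replicate 4. The other core kinase Stk3 (0.26, adjusted p = 0.118), its scaffold Sav1 (-0.04, 0.795) and the LATS cofactors Mob1a (0.27, 0.0919) and Mob1b (-0.25, 0.127) did not pass. Mob1a passed without batch 1 bleomycin replicate 8 (0.35, adjusted p = 0.02), and Stk3 without batch 1 bleomycin replicate 5 (0.34, 0.0489). Mob1b passed without the batch term, which pools the bleomycin batches (-0.42, adjusted p = 0.0144).

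Of 17 upstream regulators at membranes and junctions, 3 were higher, 7 lower and 7 not called (median log2 change -0.16), against the same 30.9% over all genes. The falls were led by Pals1, a scaffold of the apical Crumbs complex, from 142 ± 6.70 to 69.2 ± 14.6 CPM, a log2 change of -1.03 (SE 0.12, adjusted p = 1.44e-05), with 78.4 ± 7.75 CPM in batch 2. Frmd6, a FERM protein upstream of the kinases, fell from 105 ± 4.76 to 63.7 ± 8.50 CPM (-0.73, SE 0.10, adjusted p = 6.84e-05), with 56.3 ± 6.18 CPM in batch 2. The other 5 that fell, named here after their values were seen, were nearer to saline in batch 2. Their batch 2 means were 0.884 of saline for Wwc1, 0.869 for Wwc2, 0.846 for Patj, 0.973 for Tjp1 and 0.99 for Cdh1. Wwc1 was higher in batch 2 than in batch 1 bleomycin (log2 difference 0.55, adjusted p = 0.0478). The 3 that rose, named here after their values were seen, were the giant cadherins Fat1 (0.47, SE 0.12), Dchs1 (0.55, SE 0.11) and Dchs2 (1.40, SE 0.26), while Fat4 of the same family did not pass (0.04, adjusted p = 0.746). Nf2, which encodes merlin, did not pass (-0.14, adjusted p = 0.228).

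A mixed list of 14 other regulators held genes that restrain YAP and TAZ (such as Amot and Ptpn14) and genes that act against the kinases (such as Ajuba and Slmap). Of these, 1 was higher, 2 lower and 11 not called (median log2 change 0.05), against 30.9% over all genes. Rassf1, a scaffold that binds the core kinases, rose from 31.5 ± 2.40 to 50.3 ± 5.22 CPM, a log2 change of 0.67 (SE 0.10, adjusted p = 0.000167), but stood at 36.8 ± 3.50 CPM in batch 2, lower than in batch 1 bleomycin (-0.45, adjusted p = 0.0488). Ptpn14, a phosphatase that binds YAP, fell from 172 ± 10.99 to 131 ± 18.5 CPM (-0.40, SE 0.09, adjusted p = 0.00451). The relatives of Amotl2 did not pass: Amot was at 17.1 ± 6.32 and 17.6 ± 1.32 CPM and Amotl1 at 201 ± 16.6 and 175 ± 19.6 CPM (adjusted p = 0.905 and 0.0999). Amotl1 passed by DESeq2 (log2 change -0.25, adjusted p = 0.0231) and without batch 1 bleomycin replicate 8 (-0.28, 0.0361) or saline replicate 2 (-0.28, 0.0356). The other gene that fell was Slmap (-0.34, SE 0.09), named after its values were seen. Among vestigial-like partners, which bind TEAD in place of YAP, Vgll1 and Vgll2 did not pass the filter on low counts. Vgll3 rose from 42.4 ± 3.84 to 63.3 ± 18.1 CPM (0.58, SE 0.19, adjusted p = 0.0284) but was at 34.9 ± 9.35 CPM in batch 2, lower than in batch 1 bleomycin (-0.86, adjusted p = 0.0451). Its call ended without any 1 of batch 1 bleomycin replicates 6, 7 and 8 or saline replicates 2, 3 and 4. Vgll4 did not pass (0.05, adjusted p = 0.797).

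Widely used YAP and TAZ target genes, with Ankrd1, Amotl2 and Lats2 left out, were mixed: 8 of 19 were higher, 3 lower and 8 not called, with a median log2 change of 0.28 against 0.03 over all genes, of which 17.5% were called higher and 13.4% lower. Nuak2, a kinase, rose from 12.6 ± 1.56 to 26.4 ± 4.11 CPM, a log2 change of 1.07 (SE 0.14, adjusted p = 4.69e-05), and the receptor tyrosine kinase Axl from 119 ± 6.24 to 210.1 ± 36.6 CPM (0.82, SE 0.12, adjusted p = 0.000107). In batch 2 they stood at 20.7 ± 2.86 and 217 ± 33.04 CPM. The growth factor gene Tgfb2 rose by 0.57 (SE 0.11, adjusted p = 0.00112). Ccn1 and Ccn2, secreted matricellular proteins, were higher in batch 1 bleomycin by 1.31 (SE 0.28, adjusted p = 0.00471) and 1.03 (SE 0.36, adjusted p = 0.0481). They stood at 80.3 ± 34.6 and 184 ± 77.5 CPM in batch 2, against 49.8 ± 9.93 and 144 ± 44.4 in saline. With 1 library left out, Ccn2 kept its call only without batch 1 bleomycin replicate 5 or batch 2 bleomycin replicate 1. It also kept its call in 2 of 9 other alternatives, DESeq2 and limma-voom. Crim1, a membrane protein that binds bone morphogenetic proteins, fell from 226 ± 13.8 to 168 ± 5.50 CPM (-0.43, SE 0.07, adjusted p = 0.000522), and the others that fell were Ptpn14 and Rbms3 (-0.47, SE 0.09). Igfbp3 did not pass (-0.33, adjusted p = 0.252). The TEAD motif was found before the start of 4 of the 12 target genes with a RefSeq window (33.3%), Axl, Ccn1, Crim1 and Ptpn14, of which Axl and Ccn1 rose while Crim1 and Ptpn14 fell.

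**Figure D5:**
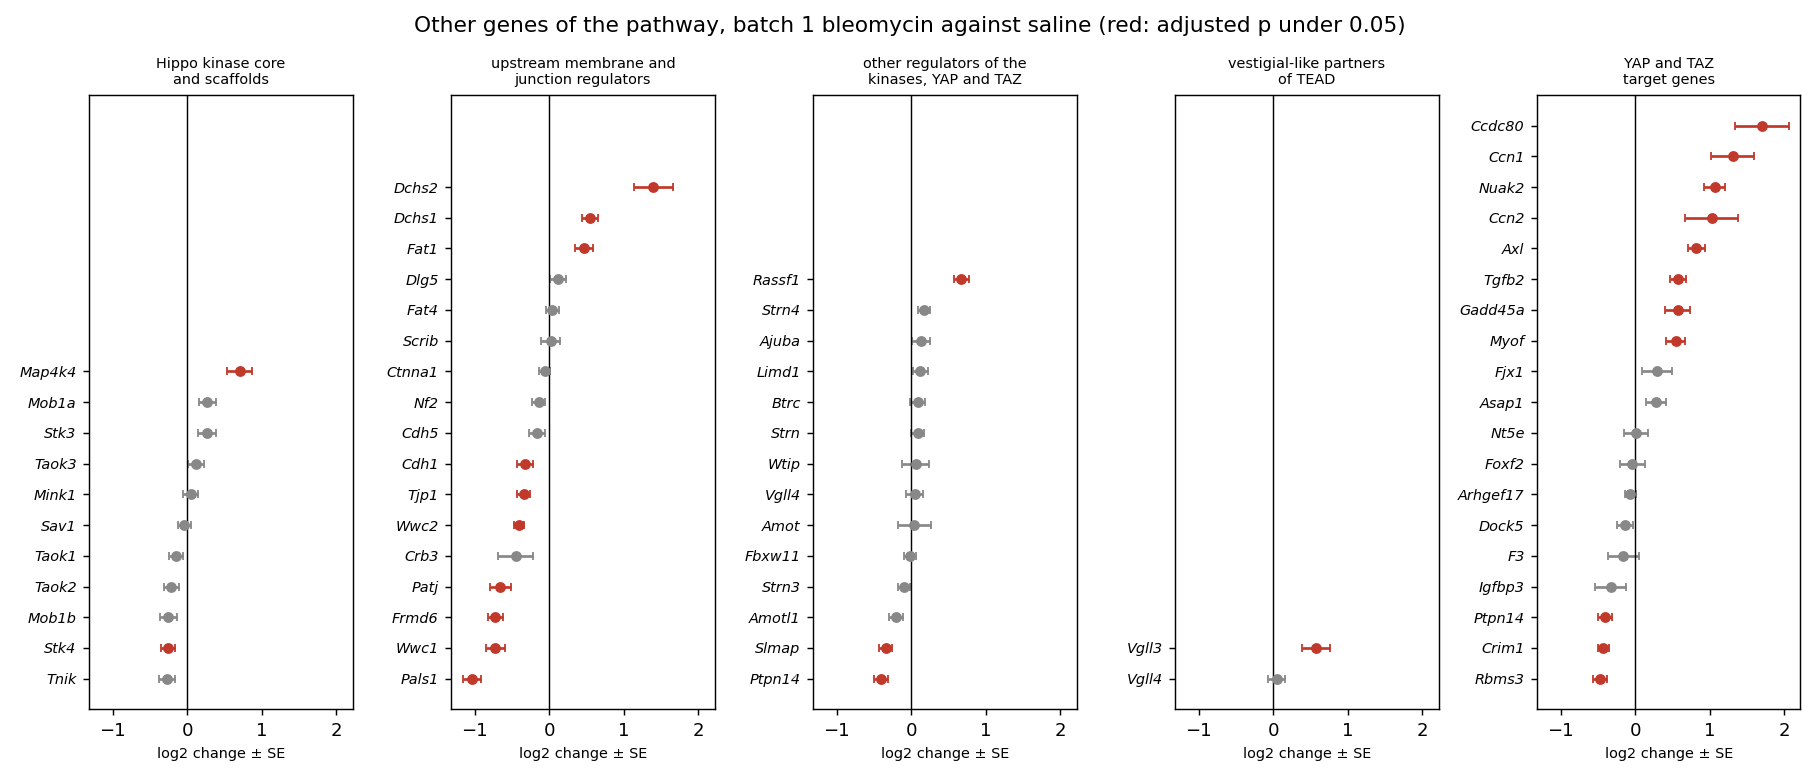
Log2 change ± SE in batch 1 bleomycin against saline (horizontal axis) of the other pathway genes, 1 panel a list, in red where the adjusted p was under 0.05 and in grey otherwise. The target list spreads from Rbms3 at -0.47 to Ccdc80 at 1.70, and the upstream list from Pals1 at -1.03 to Dchs2 at 1.40, while most of the kinase core lies near 0.

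Between the bleomycin batches, edgeR called 0 of the 10 genes, where 1.68% of all tested genes were called (0.547% higher, 1.13% lower), and DESeq2 and limma-voom also called 0. At an unadjusted p under 0.05 there were 3 of the 10, and 2995 of all 20468 tested genes. Amotl2 was higher in batch 2 (log2 difference 0.31, SE 0.10, adjusted p = 0.165), Tead1 lower (-0.26, SE 0.10, adjusted p = 0.229) and Lats1 lower (-0.24, SE 0.10, adjusted p = 0.244). Amotl2 alone did not overlap between these batches, where 7.58% of all genes did not. Ankrd1 differed by -0.67 (SE 0.35, adjusted p = 0.413). It passed without batch 2 bleomycin replicate 2 (-1.29, adjusted p = 0.0065), as Tead1 did without batch 1 bleomycin replicate 8 (-0.34, adjusted p = 0.029).

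For 3 of the genes, those most alike in pattern were looked up among the 13032 genes averaging 5 CPM or more, by Pearson correlation of log2 CPM over the 13 libraries after centring each group on its mean. They describe these libraries only, since they are the highest of many and the libraries differ in depth. Nearest to Yap1 were Sod3 (0.93), Gm43336 (0.92) and Gm42866 (0.91), nearest to Wwtr1 were Nhsl2 (0.90), Tnfaip1 (0.89) and Sema6d (0.89), and nearest to Ankrd1 were Dpysl5 (0.89), Lztr1 (0.86) and Slc25a3 (0.84). By rank (Spearman) Dpysl5 correlated with Ankrd1 at only 0.58, against 0.80 for Lztr1 and 0.80 for Slc25a3.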

How the data were processed

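RNA counts per gene symbol were deposited by the authors as whole numbers without normalization. Per the submitters' processing notes, cutadapt 4.4, STAR 2.7.10b and featureCounts 2.0.3 were used with build mm39. Sources used here do not give their roles, the strand setting, the annotation release or the use of molecular identifiers. Of the counts between 1 and 10, 78.4% to 86.1% per library were even, so a count may not be an independent molecule. The authors' normalized table was not used here.

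Genes were kept by filterByExpr over 3 groups, scaled by TMM and fitted in edgeR 4.0.16 (R 4.3.3) with robust quasi-likelihood and additive batch and treatment terms. The biological coefficient of variation was 0.306. No 2 libraries of a group were duplicates (chi-square per degree of freedom 10.1 to 267 over 22 pairs). Alternatives used DESeq2 1.42.0, limma 3.58.1 (voom), other scaling, filters, terms and left-out libraries. Ratios used a pseudocount of 0.5. Exon lengths and gene types came from GENCODE M21 (GRCm38) by symbol or synonym (20118 of 20468 tested genes).

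On simulated counts for treatment over 20044 genes, the test recovered 16.4% of 67 genes with a 1.5-fold change, 35.8% of 67 with a 2-fold and 66.7% of 66 with a 4-fold change, and made 3 false calls. For batch over 20182 genes it recovered 8.96%, 34.3% and 72.7%, with 4 false calls. Only these few genes were changed in the simulation, whereas 6319 were called for treatment and 343 for batch in the data. The adjustment was therefore stricter on the simulated counts, and these rates do not give the sensitivity of the fits reported.

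Named genes were the 10, 17 fixed pathway genes and the 2 of lowest p in each list. For marker lists the rule took the 2 most abundant genes. The 10 genes, lists and tests were chosen with earlier results of these data known.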

Additional observations from a re-analysis of the deposited data

Results flagged for a closer look

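In groups of 4 or 5 libraries, 4 of 45 sets of values (levels of the 10 genes and the 5 ratios in each group) held a library set far apart from the rest of its group by Dixon's criterion at 95%, which chance passes in about 1 of 20 groups. Ankrd1 stood at 66.3 CPM in batch 2 bleomycin replicate 2, against 19.2 to 26.1 CPM in the others of that batch. Wwtr1 stood at 117 CPM in batch 1 bleomycin replicate 8, the library whose title says control, against 147 to 152 CPM. Yap1 stood at 94.98 CPM in saline replicate 2, the shallowest saline library, against 112 to 117 CPM. In batch 2 bleomycin replicate 4, Yap1 stood at 101 CPM, against 93.6 to 94.8 CPM.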

How the results depend on the processing

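Of the 10 genes, 7 passed for bleomycin against saline, 4 to 7 with 1 library left out, 3 under the replicate block and 1 (Amotl2) with bleomycin replicate 8 moved to saline. That move left 645 calls among all genes, where the fit as reported gave 6319. The replicate block shares only a number between libraries. Deviations of same-numbered libraries correlated at -0.349 to 0.0406, which gives no sign that the numbers pair them but cannot exclude it. That fit weighs mostly batch 2 bleomycin against saline and kept Tead1 (-0.60), Lats2 (-0.50) and Amotl2 (-0.28), while Ankrd1 was 0.57 (adjusted p = 0.346). For batch 2 against batch 1 bleomycin, 343 genes were called, 82 over protein-coding genes alone, 737 by DESeq2, 102 by limma-voom and 148 to 1093 with 1 library left out, and 0 to 1 of the 10 genes. Some values changed sign, most of them of genes not called. Lats1 was -0.053 without the batch term, -0.14 under the block and -0.021 to 0.090 with 1 library left out. Sav1 and Mob1b were 0.00073 and 0.0039 with replicate 8 moved, and Sav1 ranged from -0.13 to 0.024 with 1 library left out. Under the block Mob1a was -0.049, and Vgll3, called higher as reported (0.58), was -0.26. The block also called Mob1b (-0.50, adjusted p = 0.0104) and Igfbp3 (-0.76, adjusted p = 0.00689), and Ccn1 (0.77), Ptpn14 (-0.23) and Rassf1 (0.32) did not pass under it. Amot was -0.010 over protein-coding genes, -0.058 without the batch term, -0.057 under the block and -0.13 to 0.21 with 1 library left out. Vgll4 was -0.011 over protein-coding genes and -0.023 to 0.14 with 1 left out. Between batches Wwtr1 ranged from -0.11 to 0.016 and Tead4 from -0.034 to 0.20. The Wwtr1 to Yap1 difference passed with batch 2 bleomycin pooled in (0.22, adjusted p = 0.0408, which mixes batch with treatment) and was 0.13 to 0.25 with 1 library left out. Tead4 to Tead1 was 0.099 pooled and -0.20 to 0.072 with 1 left out. The cause was not tested for any of these. With 4 against 5 libraries, changes of 1.5-fold and 2-fold were mostly missed on simulated counts in which few genes were changed. Those rates do not give the sensitivity of the fit reported.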
